A study of Mus musculus with 6 samples.

Results

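The imprinted growth genes are a set of mouse genes that are normally transcribed from only the maternal or only the paternal copy and that act on body growth and on the proliferation of progenitor cells. The set examined here was fixed by name and held 9 genes: H19, Meg3, Dlk1, Cdkn1c, Peg3, Mest, Grb10, Plagl1 and Ndn. Of these 9, 7 had a row among the 22824 in each file, 6 of the 7 were above 0 in at least 1 library, and the same 6 were tested. H19 and Meg3, both long noncoding RNAs, matched no row by symbol or by Ensembl identifier and were not analysed here. RNA was sequenced from femurs of C57BL/6 mice, with 3 OE and 3 Ctrl libraries. OE mice carried 9.6kb DMP1-Cre together with R26-Wnt7b, and the labels call all OE mice homozygotes without naming the allele. Ctrl mice were littermates with R26-Wnt7b and no Cre, so the Wnt7b allele was present in both groups. The Dmp1 regulatory sequence directs Cre to osteocytes and late osteoblasts. The sources used here give neither the age of the mice nor whether a library came from 1 animal or a pool. The spread between libraries may therefore be partly technical, and the p-values measure only that spread.

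Genomic imprinting marks a gene by DNA methylation laid down in the egg or the sperm, and the mark is kept through the divisions of the embryo. Many imprinted genes are switched on in the embryo and fall silent after birth, and they are often described as one co-regulated network in which maternally expressed members tend to restrain growth and paternally expressed members tend to promote it. Cdkn1c, Grb10, H19 and Meg3 are expressed from the maternal copy in most mouse tissues. Dlk1, Peg3, Mest, Plagl1 and Ndn are expressed from the paternal copy. Levels are in FPKM, fragment counts scaled to transcript length and to the mapped fragments of the library, which allows levels of different genes to be set side by side. Between libraries it is a relative measure, since abundant genes take a share from the others. It does not separate the 2 parental copies.

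Wnt7b itself was read first as a check of the labels. It measured 2.49, 0.661 and 0.295 FPKM across OE 1 to 3, against 0.909 for the library labelled Ctrl 1 and 0.00833 for Ctrl 2, and was listed at 0 for Ctrl 3. The library labelled Ctrl 1 was above 2 of the 3 OE libraries, so its label is in doubt (exact two-sided permutation p = 0.3 for Wnt7b over all 6 libraries). The limma comparison of each tested imprinted growth gene is therefore given with and without it. Several other comparisons are given with all 6 libraries only. Osteoblast markers were present in every library, except that Col1a1 and Col1a2 were listed at 0 in OE 1 and the library labelled Ctrl 1. The labels describe bone without cartilage and marrow. Even so, the cartilage collagen gene Col2a1 reached 264 FPKM in OE 2, and the neutrophil gene S100a8 had the highest mean of all listed marker genes. Absolute depth is unknown. The steps between low FPKM values put the libraries within 1 to 1.18 times the depth of the shallowest, and 11627 to 12258 genes reached 1 FPKM per library.

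Every imprinted growth gene with a value above 0 was higher on average in OE than in Ctrl, and none passed the test with all 6 libraries. The libraries labelled Ctrl 2 and Ctrl 3 were the lowest pair for each of the 6 genes, and the library labelled Ctrl 1 lay within the OE range for Cdkn1c, Grb10, Peg3 and Ndn and between OE and the other Ctrl libraries for Plagl1 and Mest. Levels were modest: the 6 genes summed to 24.7 to 35.8 FPKM in OE, against 22.9 for the library labelled Ctrl 1, 8.37 for Ctrl 2 and 9.56 for Ctrl 3.

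**Figure D1:**
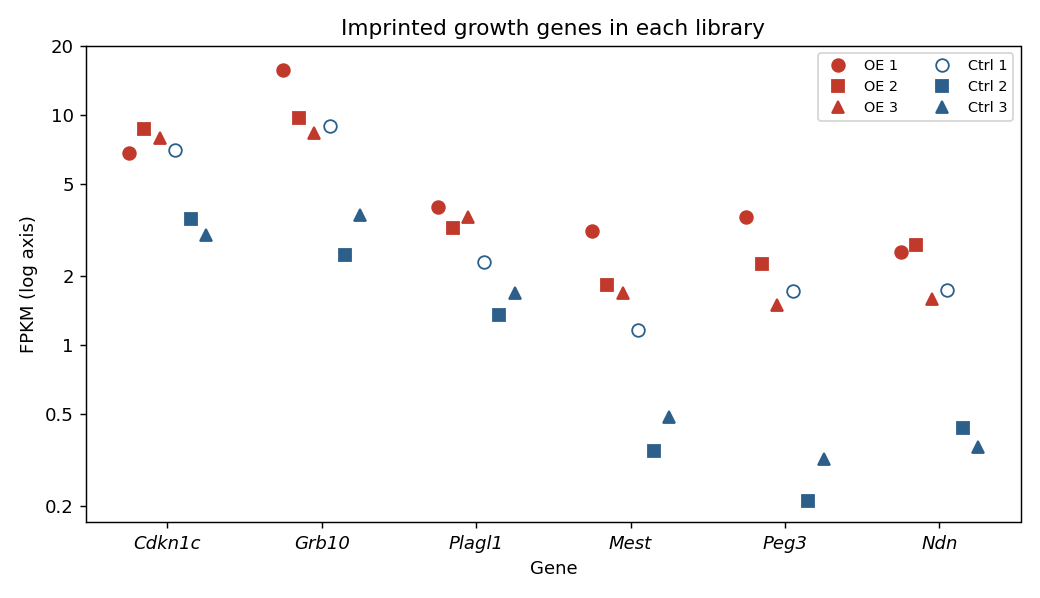
FPKM of the 6 imprinted growth genes above 0, on a log axis, with 1 point per library (red, OE; blue, Ctrl; open circle, the library labelled Ctrl 1). Ctrl 2 and Ctrl 3 lie lowest for every gene, and all OE points lie above all Ctrl points for Plagl1 and Mest.

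Among the maternally expressed genes, Cdkn1c encodes p57, an inhibitor of cyclin-dependent kinases that holds cells out of the cycle and is needed for normal growth plate and bone formation. The gene (ENSMUSG00000037664) spans chromosome 7 from 143458339 to 143461050 on the minus strand of GRCm38. Cdkn1c measured 6.86, 8.68 and 7.95 FPKM across OE 1 to 3, against 7.02 for the library labelled Ctrl 1, 3.54 for Ctrl 2 and 3.01 for Ctrl 3. OE 1 and the library labelled Ctrl 1 were nearly level, so the groups overlapped. Means were 7.83 ± 0.918 FPKM (SD, n = 3) for OE and 4.52 ± 2.18 for Ctrl (SD, n = 3). The limma difference was 0.74 (SE 0.27) in log2(FPKM + 1), with an adjusted p = 0.554 over all genes.

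Grb10 encodes an adaptor that binds activated insulin and IGF1 receptors and dampens their signal, and mice that lack its maternal copy are overgrown. The gene (ENSMUSG00000020176) spans chromosome 11 from 11930508 to 12038683 on the minus strand of GRCm38. Grb10 was the most abundant of the set in 5 of the 6 libraries, with 15.7, 9.70 and 8.36 FPKM across OE 1 to 3, against 8.97 for the library labelled Ctrl 1, 2.47 for Ctrl 2 and 3.69 for Ctrl 3. OE 1 was the highest library by a wide margin, and the library labelled Ctrl 1 lay between OE 3 and OE 2. Means were 11.2 ± 3.92 FPKM (SD, n = 3) for OE and 5.05 ± 3.45 for Ctrl (SD, n = 3), a limma difference of 1.12 (SE 0.41) with an adjusted p = 0.554.

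Among the paternally expressed genes, Plagl1 encodes a zinc-finger transcription factor, also called Zac1, that is regarded as a regulator of other imprinted genes. The gene (ENSMUSG00000019817) spans chromosome 10 from 13060504 to 13131694 on the plus strand of GRCm38. Plagl1 measured 3.97, 3.22 and 3.60 FPKM across OE 1 to 3, against 2.31 for the library labelled Ctrl 1, 1.36 for Ctrl 2 and 1.69 for Ctrl 3. The lowest OE value exceeded the highest Ctrl value, that of the library labelled Ctrl 1. Means were 3.60 ± 0.373 FPKM (SD, n = 3) for OE and 1.78 ± 0.482 for Ctrl (SD, n = 3). The limma difference of 0.73 (SE 0.18) had the smallest unadjusted p of the set, 0.00488, and an adjusted p = 0.554.

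Mest encodes an enzyme of the alpha/beta hydrolase fold and carries the microRNA gene Mir335 within it. The gene (ENSMUSG00000051855) spans chromosome 6 from 30723547 to 30748465 on the plus strand of GRCm38. Mest measured 3.13, 1.82 and 1.69 FPKM across OE 1 to 3, against 1.16 for the library labelled Ctrl 1, 0.348 for Ctrl 2 and 0.488 for Ctrl 3. Here too the groups did not overlap, with the library labelled Ctrl 1 at 0.689 times the lowest OE library. The limma difference was 0.95 (SE 0.26), with an adjusted p = 0.554. Mest shares 912 bases with Copg2 on the opposite strand, a gene at 21.3 to 32.4 FPKM. The sources used here do not state whether counting used strand, so reads from that stretch cannot be assigned with certainty.

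Peg3 encodes a large zinc-finger protein linked to growth and cell survival. The gene (ENSMUSG00000002265) spans chromosome 7 from 6703892 to 6730431 on the minus strand of GRCm38. Peg3 measured 3.63, 2.26 and 1.496 FPKM across OE 1 to 3, against 1.72 for the library labelled Ctrl 1, 0.211 for Ctrl 2 and 0.321 for Ctrl 3. The library labelled Ctrl 1 exceeded OE 3. Peg3 had the widest spread of the set, 17.2-fold between the highest and the lowest library. Its limma difference was 1.04 (SE 0.38), with an adjusted p = 0.554.

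Ndn encodes necdin, a member of the MAGE family that restrains the cell cycle in neurons and other non-dividing cells. It is a single-exon gene on chromosome 7, 62346569 to 62350262 (GRCm38, plus strand, ENSMUSG00000033585). The noncoding gene Gm32061, which had no row, covers its whole span of 3694 bases on the opposite strand. As for Mest, reads from that stretch therefore cannot be assigned with certainty. The same holds for 892 bases that Cdkn1c shares with Gm44732 on the opposite strand. Ndn measured 2.53, 2.73 and 1.59 FPKM across OE 1 to 3, against 1.74 for the library labelled Ctrl 1, 0.438 for Ctrl 2 and 0.362 for Ctrl 3. The library labelled Ctrl 1 again exceeded OE 3. The limma difference was 0.89 (SE 0.31), with an adjusted p = 0.554. Dlk1, which encodes a transmembrane relative of the Notch ligands that blocks adipocyte formation, was listed at 0 in all 6 libraries. Its neighbour Rtl1, a paternally expressed gene of the same cluster on chromosome 12, was also listed at 0 in all 6, and an exact 0 can be a failed estimate in these files.

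With all 6 libraries, limma called 0 of the 6 tested genes at an adjusted p of 0.05, against 0% of the 12177 genes tested (999 of them had an unadjusted p under 0.05, and 996 without the trend). At an unadjusted p under 0.05 all 6 were higher in OE, against 4.12% of the genes tested that were higher at that level. That count fell to 3 without OE 1, and to 2 without OE 2, without Ctrl 2 or without Ctrl 3. Over all 12177 genes the number higher at that level moved too, from 502 with all 6 libraries. It was 154 without OE 1, 469 without OE 2, 76 without Ctrl 2 and 130 without Ctrl 3. The groups did not overlap, with OE the higher, for 2 of the 6, against 4.59% of the genes tested. The median difference of the 6 was 0.92, and the median of all genes tested was -0.04, with 43.7% of them positive. Scaling without marrow and muscle list genes made 56.9% positive and raised the number without overlap from 2 to 6. Over all genes tested, that scaling raised the number without overlap from 559 to 676. A pseudocount of 0.1 raised the median of the 6 to 1.45. The exact two-sided permutation p was 0.1 for Plagl1 and Mest, the smallest that 3 against 3 libraries allow, and 0.2 for Cdkn1c, Grb10, Peg3 and Ndn. Mest, Peg3 and Ndn reached 1 FPKM in the OE libraries and the library labelled Ctrl 1 alone, so they passed the filter on low values through the libraries where they were high. Cdkn1c, Grb10 and Plagl1 reached 1 FPKM in all 6. With no filter the same 6 genes were tested, and 0 were called.

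Without the library labelled Ctrl 1, limma called 5 of the 6 genes higher in OE at an adjusted p of 0.05, where 4.25% of the 12177 genes were called higher. The differences were 1.04 for Cdkn1c (SE 0.16, adjusted p = 0.0217), 1.55 for Grb10 (SE 0.28, adjusted p = 0.0348) and 1.21 for Ndn (SE 0.22, adjusted p = 0.0340). Plagl1 differed by 0.87 (SE 0.17, adjusted p = 0.0413) and Peg3 by 1.41 (SE 0.28, adjusted p = 0.0471). Mest, with a difference of 1.16 (SE 0.24), missed the threshold at an adjusted p = 0.0529. The groups no longer overlapped for any of the 6, against 18.3% of the genes tested. For the 6 this was fixed in advance, because Ctrl 2 and Ctrl 3 were the lowest pair for each. On the FPKM scale, the OE mean of Peg3 was 9.26 times the mean of Ctrl 2 and Ctrl 3. The same ratio was 5.71 for Ndn, 5.30 for Mest, 3.65 for Grb10, 2.39 for Cdkn1c and 2.36 for Plagl1. Mest, Peg3 and Ndn reached 1 FPKM in no Ctrl library kept here, so they passed the filter through OE alone. With no filter on low values and the same libraries, an alternative added after seeing the data, 0 of the 6 were called, at limma adjusted p-values of 0.0708 for Ndn to 0.0976 for Grb10, and 232 of 19021 genes were called. The calls also rest on which Ctrl libraries are kept: without Ctrl 2 or without Ctrl 3, 0 of the 6 were called, at adjusted p-values of 0.9997 and 0.686.

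**Figure D2:**
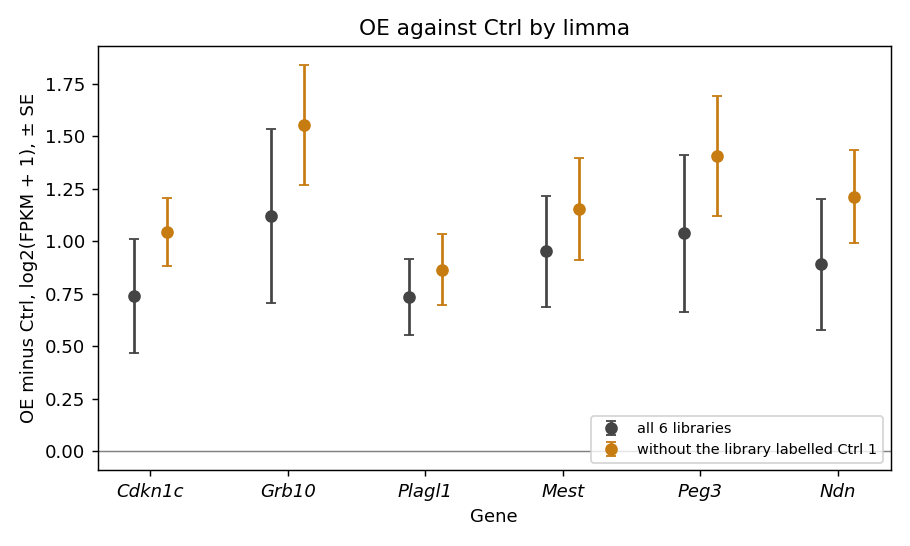
Difference between OE and Ctrl in log2(FPKM + 1) for each gene by limma, with bars of 1 SE, for all 6 libraries (grey) and without the library labelled Ctrl 1 (orange). Every difference is above 0 in both, and leaving the library out raises each one, from 0.73 to 0.87 for Plagl1 and from 1.12 to 1.55 for Grb10.

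Promoter sequences are shown for 5 genes of the set that were high and low in the same libraries, because the imprint of several of them is read at the promoter. The windows run from 250 bases before to 50 bases after a RefSeq start on GRCm38.p6, are written 5′ to 3′ along the gene's strand, and are the windows richest in CpG where RefSeq gives several starts. Capitals mark TGCCGC or its reverse complement GCGGCA, the letters bound by the imprint-keeping factor ZFP57 when methylated, and GGGGCCCC, the letters bound by PLAGL1, on either strand.
Plagl1 promoter, chr10:13090582-13090881, plus strand: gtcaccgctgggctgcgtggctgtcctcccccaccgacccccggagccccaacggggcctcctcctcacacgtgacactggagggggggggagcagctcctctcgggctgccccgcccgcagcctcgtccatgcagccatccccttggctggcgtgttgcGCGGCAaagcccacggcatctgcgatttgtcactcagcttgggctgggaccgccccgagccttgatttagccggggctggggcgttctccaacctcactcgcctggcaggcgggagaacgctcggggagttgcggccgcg
Mest promoter, chr6:30737800-30738099, plus strand: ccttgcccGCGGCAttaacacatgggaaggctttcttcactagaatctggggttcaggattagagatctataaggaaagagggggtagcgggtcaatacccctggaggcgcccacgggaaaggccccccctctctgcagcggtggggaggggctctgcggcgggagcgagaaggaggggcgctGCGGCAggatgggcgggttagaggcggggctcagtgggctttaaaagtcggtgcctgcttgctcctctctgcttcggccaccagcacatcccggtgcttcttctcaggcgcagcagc
Grb10 promoter, chr11:12037371-12037670, minus strand: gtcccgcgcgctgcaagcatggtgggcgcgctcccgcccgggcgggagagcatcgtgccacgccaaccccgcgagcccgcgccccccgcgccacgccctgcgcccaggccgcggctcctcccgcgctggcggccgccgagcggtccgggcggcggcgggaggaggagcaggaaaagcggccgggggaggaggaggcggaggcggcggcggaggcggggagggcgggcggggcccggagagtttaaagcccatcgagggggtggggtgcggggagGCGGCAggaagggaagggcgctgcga
Peg3 promoter, chr7:6730370-6730669, minus strand: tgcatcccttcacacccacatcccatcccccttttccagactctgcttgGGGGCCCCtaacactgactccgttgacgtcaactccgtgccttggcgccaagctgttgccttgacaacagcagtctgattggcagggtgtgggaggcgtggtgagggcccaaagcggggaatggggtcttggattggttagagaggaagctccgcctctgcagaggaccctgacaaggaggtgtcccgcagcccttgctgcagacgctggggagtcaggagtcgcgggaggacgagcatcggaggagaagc
Ndn promoter, chr7:62348027-62348326, plus strand: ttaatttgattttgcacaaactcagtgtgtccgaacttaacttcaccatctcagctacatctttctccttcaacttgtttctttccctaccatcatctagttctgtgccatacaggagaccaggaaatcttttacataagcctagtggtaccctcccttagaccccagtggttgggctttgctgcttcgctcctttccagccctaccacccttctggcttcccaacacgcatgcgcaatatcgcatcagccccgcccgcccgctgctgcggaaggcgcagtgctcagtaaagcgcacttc

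The 5 windows differed widely in CpG content. The Grb10 window held 45 CpG and 80.0% G or C, more CpG than 98.1% of the 32851 RefSeq promoter windows of that length. The other RefSeq start of Grb10 had 9 CpG, and the last 40 bases of the printed window, unlike those of the other 4, were found in no GENCODE M21 transcript of the gene. For Ndn that check could not fail, because its window lies wholly within the single exon that GENCODE gives it, which starts at 62346569. Plagl1 held 26 CpG, Mest 17, Peg3 13 and Ndn 11, above 83.1%, 68.6%, 62.1% and 58.6% of windows. TGCCGC on either strand occurred 2 times in the Mest window, 1 time each in those of Plagl1 and Grb10, and not in those of Peg3 and Ndn, and 11.6% of all windows held it. GGGGCCCC occurred 1 time, in the Peg3 window, and 1.08% of all windows held it. The YY1 letters GCCATNTT, searched on both strands, were in none of the 5 windows and in 6.05% of all windows. A match describes these letters in these windows and is no evidence of binding, and FPKM per gene does not tell which start was used.

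The 6 genes kept a similar but not identical order of levels. Grb10 and Cdkn1c held the first and second ranks in all 6 libraries, with Cdkn1c above Grb10 in Ctrl 2 alone, and Plagl1 was the third in each. The means of Grb10 and Cdkn1c differed by less than the spread between libraries in both groups. Peg3, Mest and Ndn exchanged the last 3 ranks from library to library and could not be ordered. In Ctrl 2 and Ctrl 3 these last 3 genes stood below 0.5 FPKM, and Cdkn1c and Plagl1 stood at 1.36 to 3.54.

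Ratios between 2 genes of a library do not depend on how libraries are scaled, and 15 such ratios were formed. The steadiest was Mest over Grb10, at 0.130 to 0.202 over the 6 libraries. Its log2 values were -2.33, -2.41 and -2.31 across OE 1 to 3, against -2.95 for the library labelled Ctrl 1, -2.83 for Ctrl 2 and -2.92 for Ctrl 3. By level, the library labelled Ctrl 1 lay within the OE range for Grb10 and between OE and the other Ctrl libraries for Mest. The ratio placed it with the other Ctrl libraries, at an exact two-sided permutation p = 0.1, or 0.5 adjusted over the 15 ratios. Cdkn1c over Mest gave the same p and likewise did not overlap, with log2 ratios of 1.13 to 2.25 in OE and 2.59 to 3.34 in Ctrl. The widest ratio was Cdkn1c over Peg3, from 1.89 in OE 1 to 16.8 in Ctrl 2, so Peg3 dropped more between these libraries than Cdkn1c did.

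The drop in Ctrl 2 and Ctrl 3 was shared with markers of several cell types. The summed FPKM of the osteoblast markers without a 0 (12 of 14, Col1a1 and Col1a2 being listed at 0 in OE 1 and the library labelled Ctrl 1) was 4175 to 6693 in OE, against 5813 for the library labelled Ctrl 1, 459.5 for Ctrl 2 and 375 for Ctrl 3. The 10 cartilage markers summed to 272 to 565 in OE, against 345 for the library labelled Ctrl 1, 16.4 for Ctrl 2 and 22.1 for Ctrl 3. The 11 skeletal muscle markers with a row summed to 1571 to 2027, 1787, 263 and 384 in the same order, and the 7 fibroblast markers to 434 to 681, 581, 195 and 184. Osteocyte markers without a 0 (9 of 10) summed to 274 to 743 in OE, against 505 for the library labelled Ctrl 1, 145 for Ctrl 2 and 192 for Ctrl 3. The 7 osteoclast markers with a row summed to 1300 to 3719 in OE, against 3163 for the library labelled Ctrl 1, 1030 for Ctrl 2 and 993 for Ctrl 3. The 10 periosteum and tendon markers summed to 481 to 1330 in OE, against 1144 for the library labelled Ctrl 1, 147 for Ctrl 2 and 118 for Ctrl 3. By its sum, each of these lists had the same low pair. Members without that pair as their lowest were Runx2, Fgf23, Cd44, Mmp9, Thbs4, Pi16 and Ly6a. Mmp9 measured 400 FPKM in OE 3, against 726 in Ctrl 2 and 737 in Ctrl 3. Pi16 measured 42.15 FPKM in OE 3, against 110.6 in Ctrl 2 and 100.2 in Ctrl 3. Of the 7 muscle satellite cell markers with a row, the defining genes Pax7, Myf5 and Myog were each listed at 0 in at least 1 library and stayed at 0.167 FPKM or less, and the others summed to 15.4 to 26.4 in OE, against 19.5 for the library labelled Ctrl 1, 9.11 for Ctrl 2 and 13.7 for Ctrl 3.

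By their sum, the 8 endothelial markers were lowest in the same pair by a narrow margin. They summed to 109.6 to 136 in OE, against 129 for the library labelled Ctrl 1, 98.75 for Ctrl 2 and 102 for Ctrl 3. Of the single markers, Pecam1, Kdr, Tek and Vwf did not have Ctrl 2 and Ctrl 3 as their lowest. Vwf measured 9.83, 9.498 and 37.14 FPKM across OE 1 to 3. It stood at 11.33 for the library labelled Ctrl 1, 19.74 for Ctrl 2 and 29.77 for Ctrl 3. For the 8 B cell markers with a row, the lowest libraries depended on the measure. Their level, a mean of log2(FPKM + 1), was lowest in that pair, at 2.57 and 2.41. It was 2.80 in the library labelled Ctrl 1 and 2.62, 3.24 and 5.16 across OE 1 to 3. Their summed FPKM was lowest in OE 1, at 50.1, with 90.8 in OE 2 and 412 in OE 3. That sum was 65.1 for the library labelled Ctrl 1, 67.1 for Ctrl 2 and 52.8 for Ctrl 3. Marrow stroma, neutrophil and erythroid lists did not have that pair as their lowest. The level of the 12 neutrophil markers was 10.75 to 12.09 in OE and 11.79 to 12.14 in Ctrl. That of the 10 erythroid markers was 9.60 in OE 3 and 5.24 to 7.99 elsewhere, and the 8 marrow stroma markers ran from 3.78 to 4.74 in OE and from 3.68 to 4.11 in Ctrl. The part of bone, osteoclast, cartilage, periosteum, muscle, fibroblast, endothelial or B cell content in the differences of the imprinted growth genes was not tested. In bulk RNA, fewer cells of a type and less RNA per cell cannot be told apart.

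**Figure D3:**
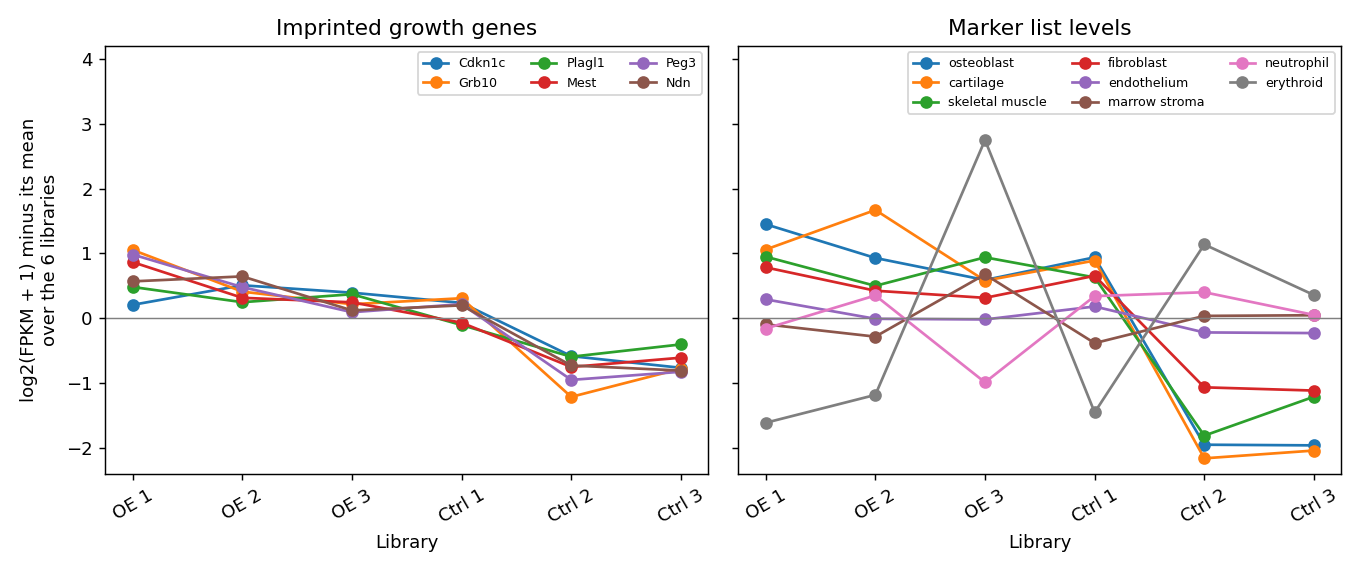
Left, log2(FPKM + 1) of each of the 6 genes minus its mean over the libraries; right, the levels of 8 marker lists centred the same way, with lines joining the points of a gene or list only to guide the eye. The 6 genes, like the osteoblast, cartilage, muscle and fibroblast lists, are lowest in Ctrl 2 and Ctrl 3, on this scale, which compresses differences near 1 FPKM.

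Relatives of the imprinted growth genes that are not themselves imprinted members of the set gave mixed values. In the Cip/Kip family of kinase inhibitors, Cdkn1a, which encodes p21, measured 50.9, 33.2 and 31.2 FPKM across OE 1 to 3, against 50.1 for the library labelled Ctrl 1, 8.91 for Ctrl 2 and 9.86 for Ctrl 3. Cdkn1b, which encodes p27, stayed between 41.4 and 50.2 FPKM in all 6 libraries. Cdkn1c thus had the low values of Ctrl 2 and Ctrl 3 in common with Cdkn1a and not with Cdkn1b. Without the library labelled Ctrl 1, Cdkn1a was called higher in OE by 1.89 (SE 0.24, limma adjusted p = 0.0116), and Cdkn1b differed by -0.03 (SE 0.16). With no filter as well, the adjusted p of Cdkn1a was 0.0473.

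In the Grb7 family of adaptors, Grb14 measured 6.32, 4.50 and 2.74 FPKM across OE 1 to 3, against 4.11 for the library labelled Ctrl 1, 1.42 for Ctrl 2 and 1.23 for Ctrl 3, the same low pair as Grb10. Grb7 reached 2.91 FPKM in OE 3 and lay at 0.0832 to 0.220 in the other libraries. The receptors that Grb10 binds did not share the low pair. Igf1r, the IGF1 receptor gene, measured 17.7, 13.6 and 13.4 FPKM across OE 1 to 3, against 12.9 for the library labelled Ctrl 1, 15.05 for Ctrl 2 and 23.1 for Ctrl 3. Insr, the insulin receptor gene, ran from 8.98 to 12.8 FPKM in OE and from 7.88 to 14.5 in Ctrl.

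In the Plag family, Plagl2 stayed between 14.3 and 16.8 FPKM and Plag1 between 0.268 and 0.479 in all 6 libraries, and neither was low in Ctrl 2 and Ctrl 3 as Plagl1 was. The limma difference of Plagl2 was 0.02 (SE 0.13). In the MAGE family, Maged1, an adaptor of cell death signalling, measured 65.6, 51.4 and 33.5 FPKM across OE 1 to 3, against 58.0 for the library labelled Ctrl 1, 9.23 for Ctrl 2 and 7.47 for Ctrl 3. Maged2 and Mageh1 were also lowest in Ctrl 2 and Ctrl 3, at 7.91 and 5.79 FPKM for Maged2 and 0.876 and 0.719 for Mageh1. Magee1 stayed between 1.09 and 1.80 FPKM.

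**Figure D4:**
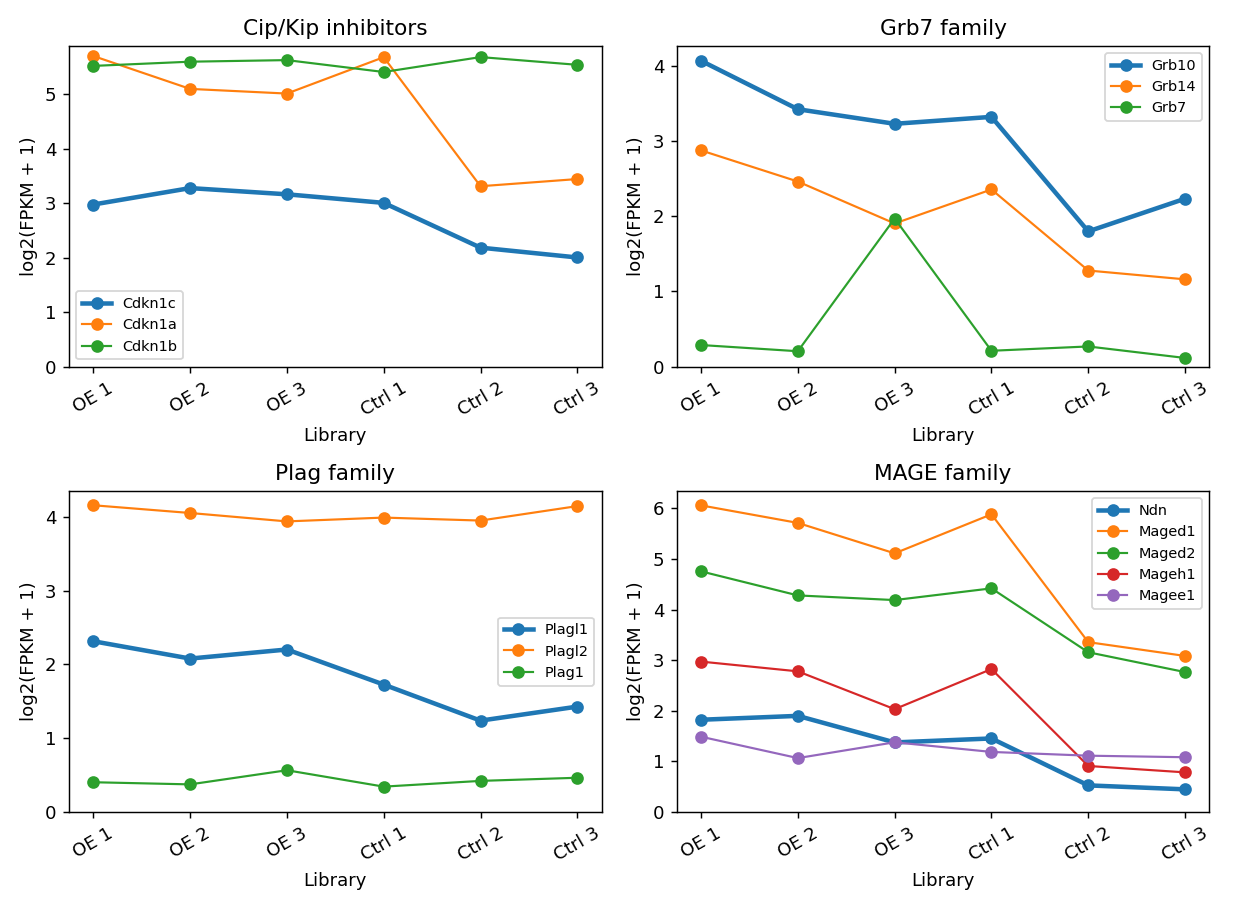
log2(FPKM + 1) of Cdkn1c, Grb10, Plagl1 and Ndn (thick lines) and of relatives of each (thin lines) in the 6 libraries, with lines joining the points only to guide the eye. Cdkn1a, Grb14, Maged1, Maged2 and Mageh1 are lowest in Ctrl 2 and Ctrl 3 like the imprinted genes, and Cdkn1b, Plagl2 and Magee1 stay level.

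The list of imprinted genes outside the set held 58, among them Plagl2, given above with the Plag family, and imprinting itself was not measured. Of the 58, 51 had a row and 26 were tested, 15 with a positive and 11 with a negative difference. The median of the 26 was 0.07 with all 6 libraries. None was called with all 6 libraries. Without the library labelled Ctrl 1, 2 of the 26 were called higher and 0 lower, against 4.25% and 0.649% of all genes tested. These were Dcn, which encodes the matrix proteoglycan decorin and also stands in the fibroblast list, and Slc38a4, an amino acid transporter gene. With no filter as well, the limma adjusted p was 0.0195 for Dcn and 0.0729 for Slc38a4. Snrpn, too low to be tested with the filter, was called higher in that fit by 0.65 (SE 0.055, limma adjusted p = 0.0211). It measured 0.683 to 0.796 FPKM in OE, against 1.53 for the library labelled Ctrl 1, 0.0917 for Ctrl 2 and 0.119 for Ctrl 3. Dcn measured 251, 192 and 182 FPKM across OE 1 to 3, against 188 for the library labelled Ctrl 1, 24.1 for Ctrl 2 and 27.4 for Ctrl 3. Slc38a4 measured 2.52, 1.70 and 1.22 FPKM across OE 1 to 3, against 1.55 for the library labelled Ctrl 1, 0.0772 for Ctrl 2 and 0.2 for Ctrl 3. Without the library labelled Ctrl 1, Slc38a4 thus passed the filter through OE alone.

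Igf2, the growth factor gene that neighbours H19, measured 4.26, 3.24 and 3.09 FPKM across OE 1 to 3, against 4.11 for the library labelled Ctrl 1, 1.18 for Ctrl 2 and 1.795 for Ctrl 3. Without the library labelled Ctrl 1 its difference of 0.87 (SE 0.20) missed the threshold at a limma adjusted p = 0.0730. Of the 8 most abundant other imprinted genes, only Dcn was called in either comparison. Gnas, which encodes the stimulatory G protein alpha subunit, ran from 103 to 123 FPKM in OE and from 112 to 125 in Ctrl. Commd1 and H13 ran from 87.2 to 122 and from 73.9 to 118 FPKM in OE, and from 103.5 to 128 and from 94.35 to 129 in Ctrl. With all 6 libraries the differences were 0.27 for Cd81, -0.35 for Tspan32, -0.11 for Bcl2l1 and -0.18 for Copg2, none called.

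Imprinted neighbours within 1 Mb differed in whether they had the low pair of the set. Copg2, which overlaps Mest, stood at 31.4 and 32.4 FPKM in Ctrl 2 and Ctrl 3, above all other libraries, where Mest was lowest. Zim1, which lies 7.44 kb from Peg3, measured 0.282, 0.134 and 0.0745 FPKM across OE 1 to 3, against 0.0636 for the library labelled Ctrl 1, 0.00797 for Ctrl 2 and 0.0444 for Ctrl 3, all too low to be tested. Usp29, which starts 0.147 kb from Peg3, was listed at 0 in all 6. Near Ndn, Magel2 stayed at or below 0.0282 FPKM, and Mkrn3 and Peg12 ran from 0.0486 to 0.286 and from 0.458 to 0.9485. Near Grb10, both neighbours had their lowest pair in Ctrl 2 and Ctrl 3 as Grb10 did, Cobl at 0.631 and 0.4865 FPKM with 0.833 or more elsewhere, and Ddc at 0.154 and 0.172 with 0.2925 or more elsewhere. Near Cdkn1c, 3 genes had the same low pair as Cdkn1c: Kcnq1 at 0.307 and 0.509 FPKM with 0.554 or more elsewhere, Cd81 at 63.25 and 53.35 with 73.7 or more elsewhere, and Igf2 as given above. Tspan32 was instead lowest in OE 1 at 26.4 FPKM and highest in Ctrl 2 at 51.6. No neighbour was listed for Plagl1.

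The factors that keep imprints through cell division did not pass the test. Of 12 genes, 9 were tested and none was called with all 6 libraries or without the library labelled Ctrl 1. Dnmt1, the maintenance DNA methyltransferase gene, ran from 58.2 to 61.9 FPKM in OE and from 65.8 to 76.5 in Ctrl. Its partner Uhrf1 ran from 38.4 to 58.4 and from 45.5 to 49.5, and Trim28, a corepressor recruited by ZFP57, from 53.0 to 61.1 and from 65.9 to 73.2. Dnmt1 and Trim28 were lower in every OE library than in every Ctrl library. Their differences with all 6 libraries were -0.21 (SE 0.13) and -0.27 (SE 0.14), and Ctcf, the insulator protein gene, differed by -0.04. Such non-overlap with OE the lower held for 8.97% of the genes tested. Zfp57 itself, too low to be tested, measured 0.883, 0.628 and 0.684 FPKM across OE 1 to 3, against 0.774 for the library labelled Ctrl 1, 0.274 for Ctrl 2 and 0.261 for Ctrl 3, the same low pair as the imprinted growth genes.

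The other lists were described by the same counts, to be read beside the 4.25% of all genes called higher without the library labelled Ctrl 1. Among 17 cell cycle genes tested, 7 had a positive difference and 10 a negative one, and without the library labelled Ctrl 1 Cdkn1a and the cyclin D1 gene Ccnd1 were called higher. With all 6 libraries Ccnd3, Cdkn2d, Pcna and Cdk4, the most abundant of the cell cycle genes, differed by -0.30, -0.31, -0.06 and -0.17. Of the 11 genes of the insulin and IGF1 receptor pathway tested, none was called in either comparison. Among its most abundant genes, Nedd4, a ubiquitin ligase that binds Grb10, differed by 0.52 (SE 0.21) with all 6 libraries. Pik3r1, Akt2 and Akt1 differed by 0.27, -0.24 and -0.43 with the same libraries. Of 8 genes of the MAGE and necdin partner list tested, Maged1, Maged2 and Mageh1 were called higher without the library labelled Ctrl 1, and E2f4 and Trp53 differed by -0.26 and -0.20 with all 6. Of 8 genes tested from a list of Dlk1 and Notch partners and targets, Hey1, a Notch target, was called higher without that library (1.97, SE 0.30, limma adjusted p = 0.0202). Mageh1 and Hey1 reached 1 FPKM in no Ctrl library kept there, so they passed the filter through OE alone. With no filter as well, the limma adjusted p was 0.0460 for Maged1, 0.0716 for Maged2, 0.0849 for Mageh1, 0.0734 for Hey1 and 0.0699 for Ccnd1. Hes1 differed by 0.74, Notch1 by -0.39, Notch2 by 0.08 and Fn1 by 0.07 with all 6 libraries.

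The genes with the most similar profile over the 6 libraries were found by the root-mean-square difference of centred log2(FPKM + 1) values among 11776 other tested genes with a symbol. The closest were B9d1, Echdc2 and Nenf for Cdkn1c (0.0981 to 0.116), and Nrbp2, Lmo7 and Rbfox2 for Grb10 (0.0816 to 0.0938). They were Arhgap12, Myo19 and Gpc6 for Plagl1 (0.0765 to 0.0953), and Zfp354c, Psd3 and Ppm1e for Mest (0.0481 to 0.0885). For Peg3 they were Adgra3, Lgr4 and Slc2a10 (0.0563 to 0.0850), and for Ndn Fetub, Eps8l2 and Praf2 (0.0708 to 0.133). No gene of the set was among the 3 closest of another. The closest pair within the set was Grb10 and Peg3, at 0.132, where Peg3 ranked 25 among the genes closest to Grb10.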

How the data were processed

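The deposited files hold FPKM per gene and library, per the file headers, with no counts. TopHat2, Cufflinks and DESeq are named with the mm10 build in the submitters' processing notes, which state no role, version or setting. FPKM is relative to each library, so a few abundant genes lower all others. Groups and replicate numbers came from the titles. Symbols from GENCODE M21 (GRCm38) were found for 21172 of 21606 Ensembl rows; 1218 further rows have no identifier. No 2 files held an identical value above 0.

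limma 3.58.1 in R 4.3.3 was fitted to log2(FPKM + 1) with a trend. The 12177 genes that reached 1 FPKM in 3 or more libraries were tested, with Benjamini-Hochberg adjustment over all of them and a threshold of 0.05. This scale understates changes of low genes. Single values used exact two-sided permutation tests. The fit was tested on simulated data. Python 3.11.15 with numpy 2.4.6, pandas 2.3.3 and matplotlib 3.10.9 made tables and plots. Promoters are from RefSeq on GRCm38.p6; 7 of the 9 genes matched, all but H19 and Cdkn1c.

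The members, gene lists and alternatives were chosen with earlier results of these data known. Genes named are the members, Wnt7b, Igf2, the 4 most abundant genes of a list (8 for other imprinted genes) and the 3 closest profiles. Family relatives, neighbours within 1 Mb, receptors and called list genes outside that rule were named after their values were seen. Planned ratios of Meg3 to Dlk1 and H19 to Igf2 could not be formed, and the listed microRNAs matched no row.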

Additional observations from a re-analysis of the deposited data

How the results depend on the processing

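All 6 tested genes kept a positive difference under each of the 16 alternatives that tested them, 1 of them added after seeing the data; Plagl1, Mest, Peg3 and Ndn were left out by a filter of 5 FPKM. With all 6 libraries at equal weight none was called, also with a pseudocount of 0.1, no filter, either scaling or no trend. Leaving out 1 library at a time gave 0 to 5 of the genes called, 0 to 597 genes called in all, and a median difference of 0.77 to 1.18. The groups did not overlap, with OE the higher, for 2 to 6 of the genes and 662 to 2223 of all 12177. The highest of each came without the library labelled Ctrl 1. Without OE 3, 5 of the genes and 1038 of all genes tested did not overlap. Leaving out both the library labelled Ctrl 1 and OE 3, 6 of the genes and 1388 in all were called, with a median of 1.32. All 6 did not overlap there, against 2849 of all genes tested. Array weights gave 6 and 1394, with a median of 1.24, and put a weight of 5.83 on Ctrl 2 and 0.414 on the library labelled Ctrl 1. The median was 1.45 with a pseudocount of 0.1. Scaling that left out marrow and muscle list genes gave 1.24, and 6 of the genes did not overlap, against 676 of all genes tested. With the filter of 5 FPKM, 2 of the genes were tested and 0 were without overlap, against 239 of the 8946 genes then tested. With no filter and without the library labelled Ctrl 1, the added alternative, 232 genes and 0 of the 6 were called, with a median of 1.18. There 6 did not overlap, against 3884 of the 19021 genes tested. For the 6 this non-overlap was fixed in advance in each fit without the library labelled Ctrl 1. Ctrl 2 and Ctrl 3 were the lowest pair for all 6 genes.

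With the replicate number as a block, 0 of the genes and 0 in all were called, with the median at 0.92 and adjusted p-values of 0.191 for Mest, Peg3 and Grb10, 0.192 for Plagl1, 0.212 for Ndn and 0.315 for Cdkn1c. The block was kept as an alternative, since the sources used here do not state that equal numbers are pairs. Deviations of same-numbered libraries correlated at 0.442, 0.0866 and 0.311 across genes. Those of differently numbered libraries correlated at -0.62 to 0.416. With the block, limma gave 1797 genes an unadjusted p under 0.05, against 999 without it. These values do not settle whether the numbers are pairs. The ratios of Meg3 to Dlk1 and of H19 to Igf2, and their alternatives, were not run. Absolute depth is unknown, so values below 0.5 FPKM carry a counting error that cannot be stated.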

Other observations

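Irs1, Cdkn2a and Dio3 fall outside the rule for named genes and were picked after their values were seen. Irs1, which encodes a docking protein of the insulin and IGF1 receptors, measured 3.04, 1.16 and 0.818 FPKM across OE 1 to 3, against 0.6675 for the library labelled Ctrl 1, 0.121 for Ctrl 2 and 0.247 for Ctrl 3, so the groups did not overlap, though it was too low to be tested. Cdkn2a, which encodes the cell cycle inhibitors p16 and p19Arf, measured 3.61, 1.515 and 0.755 FPKM across OE 1 to 3. It stood at 2.21 for the library labelled Ctrl 1, 0.0408 for Ctrl 2 and 0.171 for Ctrl 3. Its limma difference was 0.79 (SE 0.52) with all 6 libraries. Without the library labelled Ctrl 1 it was 1.31 (SE 0.40, limma adjusted p = 0.155), and neither was called. Dio3, at the far end of the Dlk1 cluster, had the opposite order at very low values, with 0.0138 to 0.0262 FPKM in OE, against 0.0385 for the library labelled Ctrl 1, 0.0723 for Ctrl 2 and 0.0748 for Ctrl 3.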
